A study of Chlorella sorokiniana with 6 samples.

Results

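Acetyl-CoA carboxylase transcripts of the green alga *Chlorella sorokiniana* were described here by 3 transcripts of the count table, chosen by name. They were g9695 and g16344, annotated as the homomeric enzyme, and g9538, annotated as the biotin carboxylase subunit of the heteromeric complex. These 3 were taken from 18310 transcripts in all, and all 3 passed the filter on low counts. RNA was sequenced from 3 cultures grown mixotrophically at 100 μmol photons of light with 2% glucose, and from 3 cultures grown under the normal condition at 10 μmol photons with 0% glucose, in both cases for 7 days. Light and glucose were changed together, so their parts cannot be told apart. The study describes 1 strain, whereas the sample labels carry a running strain name, NIES-2171, NIES-2172 and NIES-2173 for the mixotrophic libraries and NIES-2168, NIES-2169 and NIES-2170 for the normal ones.

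Acetyl-CoA carboxylase joins bicarbonate to acetyl-CoA and makes malonyl-CoA, the building block of fatty acids, in the committed step of their synthesis. Biotin carries the carboxyl group: a biotin carboxylase loads it, a biotin carboxyl carrier protein holds it, and a carboxyltransferase hands it to acetyl-CoA. In land plants the heteromeric form, with these activities on separate subunits, works in the plastid where fatty acids are made, and the homomeric form, with all activities on a single long chain, mostly works in the cytosol, where malonyl-CoA is used to elongate fatty acids.

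All 6 libraries held algal transcripts: 19 of the 22 transcripts annotated to light-harvesting complex II, 6 of the 10 of light-harvesting complex I and all 5 of the Rubisco small subunit had counts in every library. The totals ran from 3527337 to 4444858 counts in the mixotrophic libraries and from 2535461 to 3560221 in the normal ones. Normal replicate 1 stood apart. It differed from the other normal libraries by a root mean square of 1.29 and 1.40 on the log2 CPM scale over the tested transcripts, and by 0.91 from its nearest library, mixotrophic replicate 1, whereas replicates 2 and 3 differed by 0.29 in the mixotrophic and 0.36 in the normal condition. Mixotrophic replicate 1 was likewise 0.90 and 1.02 away from the other mixotrophic libraries. The main comparison used replicates 2 and 3 of each condition, the libraries with expression values in the study's supplementary data. The results are also given over all 6 libraries. The log2 fold change that the study prints for this enzyme, -2.107, equals that of g9695 in DESeq2 over all 6 libraries. DESeq2 over replicates 2 and 3 gave -2.33. The common coefficient of variation was 4.64% over the 4 libraries of replicates 2 and 3 and 35.5% over all 6. What set replicate 1 apart was not tested, and the p-values measure the spread between these libraries.

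All 3 transcripts were less abundant in the mixotrophic condition over replicates 2 and 3, and the homomeric ones stayed so over all 6 libraries. Relative to normal, g9695 fell to 19.9%, g16344 to 27.5% and g9538 to 34.0%, and each passed edgeR's quasi-likelihood test with Benjamini-Hochberg adjustment. With all 6 libraries g9695 was at 23.3% and g16344 at 33.7% of normal, both called, and g9538 was at 44.7%, not called. Among all 12389 transcripts tested over replicates 2 and 3, 29% were called lower and 28.6% higher. A log2 fold change as low as that of g9695 or lower was found in 2.04% of these transcripts, as low as that of g16344 in 3.47% and as low as that of g9538 in 5.04%. In such bulk cultures, less RNA of a gene in each cell and fewer cells holding it cannot be told apart.

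g9695, the homomeric transcript with the fewest counts, had 47, 35 and 31 counts in mixotrophic replicates 1 to 3, against 116, 111 and 122 counts in normal replicates 1 to 3. Put on a common library total (CPM, after TMM scaling, a factor estimated from the bulk of the transcripts), these were 10.1, 8.62 and 8.71 CPM in mixotrophic libraries and 32.1, 46.3 and 40.1 CPM in normal ones. The conditions did not overlap, and normal replicate 1 was the lowest of the normal libraries. Over replicates 2 and 3 the log2 fold change of g9695 was -2.33 ± 0.20 (SE, n = 2 each, edgeR adjusted p = 3.7e-11), and over all 6 libraries it was -2.10 ± 0.19 (n = 3 each, edgeR adjusted p = 0.0016). It was called lower in each of the 16 alternatives run, with adjusted p between 4.8e-18 and 0.016.

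g16344, the homomeric transcript with the most counts, had 515, 361 and 309 counts in the mixotrophic libraries, against 795, 765 and 949 counts in the normal libraries. In CPM it stood at 111, 88.9 and 86.8 in mixotrophic cultures and at 220, 319 and 312 in normal cultures. Again no mixotrophic library reached any normal one, and the replicate 1 libraries lay nearest to each other. The log2 fold change of g16344 was -1.86 ± 0.08 (SE, n = 2 each, edgeR adjusted p = 1.2e-18) over replicates 2 and 3, and -1.57 ± 0.19 (n = 3 each, edgeR adjusted p = 0.0037) over all 6. It too was called in each of the 16 alternatives, with adjusted p between 4.9e-65 and 0.021.

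g9538, the biotin carboxylase of the heteromeric complex, had 2253, 2069 and 1906 counts in the mixotrophic libraries, against 1431, 3733 and 4471 counts in the normal libraries. The corresponding levels were 486, 509 and 535 CPM in mixotrophic cultures and 396, 1559 and 1469 CPM in normal cultures. Here the conditions overlapped: normal replicate 1 lay below every mixotrophic library, whereas normal replicates 2 and 3 lay far above all of them. The level was 510 ± 24.6 CPM in mixotrophic cultures and 1141 ± 647 CPM in normal cultures (SD, n = 3 each). The log2 fold change of g9538 was -1.56 ± 0.05 over replicates 2 and 3 (SE, n = 2 each, edgeR adjusted p = 1.3e-20). Over all 6 libraries it was -1.16 ± 0.49 (n = 3 each, edgeR adjusted p = 0.13), and the call was lost. DESeq2 over all 6 libraries, which called 16.6% of its transcripts lower, gave g9538 an adjusted p of 0.053. Over the 16 alternatives the adjusted p ran from 3.7e-149 to 0.28, with 12 of them called. The fall of g9538 is called only where normal replicate 1 is left out. Without that library alone, the other 5 gave -1.60 (edgeR adjusted p = 1.7e-06).

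**Figure D1:**
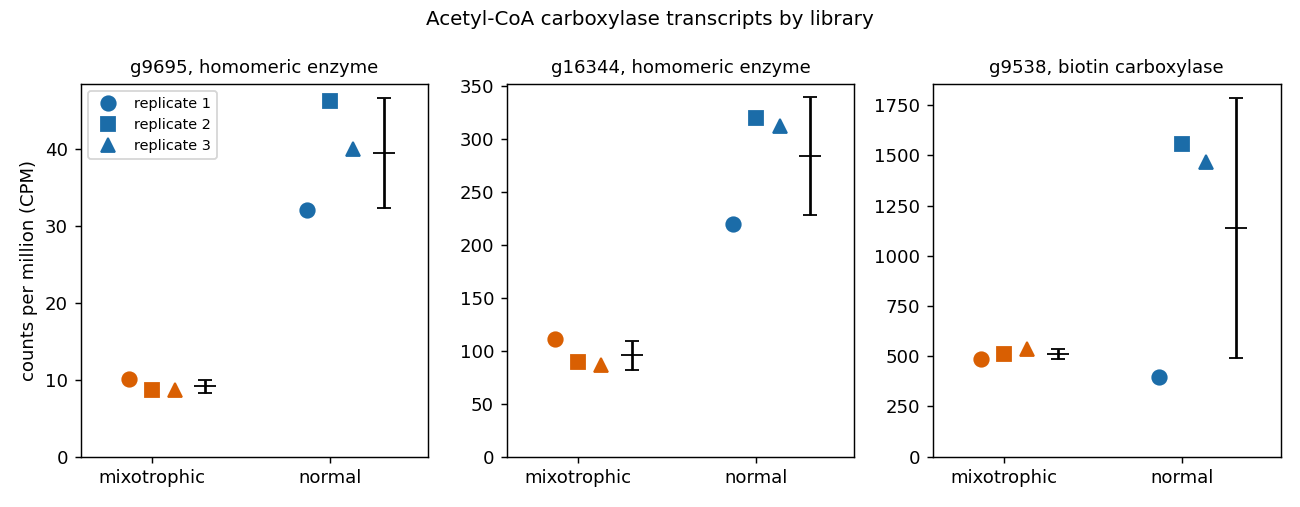
CPM of g9695, g16344 and g9538 in each library, mixotrophic on the left and normal on the right of each panel, with the mean and SD of 3 libraries in black and an axis that starts at 0. The homomeric transcripts g9695 and g16344 separate the conditions in all 6 libraries, whereas for g9538 normal replicate 1, at 396 CPM, lies below the mixotrophic libraries.

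Over all 6 libraries every mixotrophic library was below every normal one for 24.2% of the 12318 transcripts tested, so the separation of g9695 and g16344 was not rare in itself. The pattern of g9538, with normal replicates 2 and 3 above all mixotrophic libraries and normal replicate 1 not, was seen in 11% of the transcripts. Exact two-sided permutation tests of the mean log2 CPM over the libraries gave p = 0.1 for g9695 and for g16344, which is the smallest p that 3 against 3 libraries allow, and p = 0.4 for g9538. Adjusted over the 3 tests these became 0.15, 0.15 and 0.4.

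Libraries of the same replicate number gave the same picture. The ratio of mixotrophic to normal CPM of g9695 was 0.316, 0.186 and 0.217 for numbers 1, 2 and 3, and that of g16344 was 0.506, 0.278 and 0.278. For g9538 it was 1.23, 0.327 and 0.365. All 3 transcripts thus had their weakest fall, or none, at number 1, and only g9538 was higher in the mixotrophic library there. With the replicate number as a block over all 6 libraries, g9695 and g16344 stayed called (edgeR adjusted p = 0.011 and 0.017) and g9538 did not (0.16).

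Whether the homomeric transcripts responded more strongly than the biotin carboxylase was asked by taking, within each library, the difference of their log2 CPM values, which cancels the scaling of the library. For g9695 minus g9538 this was -5.72 ± 0.19 in mixotrophic libraries and -4.61 ± 0.88 in normal libraries (SD, n = 3 each). The change of -1.11 on the log2 scale put every mixotrophic library below every normal one (exact two-sided permutation p = 0.1, the smallest possible, and 0.15 after adjustment over the 3 pairs). Within numbers 1, 2 and 3 the change was -1.90, -0.74 and -0.68, and without the replicate 1 libraries it was -0.71. For g16344 minus g9538 the difference was -2.42 ± 0.26 in mixotrophic and -1.79 ± 0.82 in normal libraries, a change of -0.63. Here the conditions overlapped, since mixotrophic replicate 1, at -2.12, lay above normal replicates 2 and 3, at -2.28 and -2.23 (exact permutation p = 0.3, adjusted 0.3). Within numbers 1, 2 and 3 the change was -1.28, -0.23 and -0.38, all of one sign. Without the replicate 1 libraries it was -0.30, so normal replicate 1 carries much of the change in both pairs.

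The homomeric transcripts also differed from each other. g9695 minus g16344 was -3.38, -3.28 and -3.24 in mixotrophic replicates 1 to 3, against -2.76, -2.77 and -2.94 in normal replicates 1 to 3. This difference was tight within both conditions, normal replicate 1 included, and changed by -0.48 without overlap (exact permutation p = 0.1, adjusted 0.15), and by -0.63, -0.51 and -0.29 within numbers 1, 2 and 3. The exact permutation test cannot go below 0.1 with 3 against 3 libraries, and a p above the threshold does not show that 2 transcripts responded alike.

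**Figure D2:**
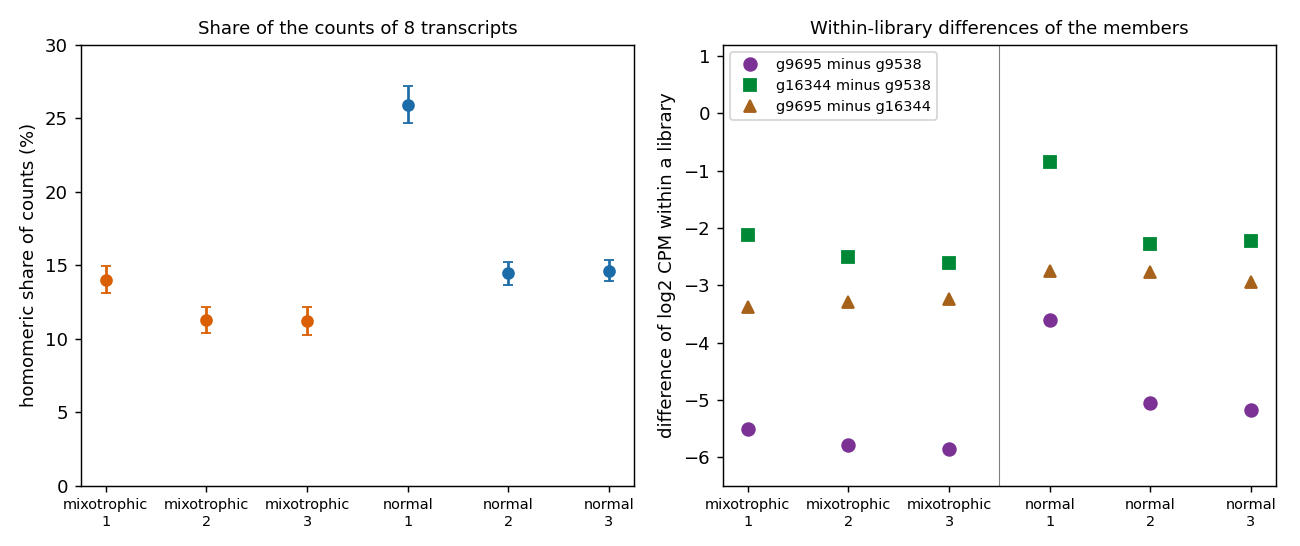
Left, share of the counts of 8 acetyl-CoA carboxylase transcripts that fell on the 3 homomeric ones in each library, in percent with exact 95% binomial intervals; right, difference of log2 CPM between pairs of g9695, g16344 and g9538 within each library, mixotrophic libraries left of normal ones. Normal replicate 1 has the highest homomeric share, 25.9%, and the g9695 minus g16344 points lie close together within each condition.

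Beside these 3 transcripts, 10 others were annotated to acetyl-CoA carboxylation, 1 of them homomeric and 9 heteromeric, and no transcript analysed here carried a beta carboxyltransferase annotation. Of all 13 transcripts, 12 had enough counts for the test. Over replicates 2 and 3, 8 of the 12 were called lower and 1 higher, against 29% lower and 28.6% higher of all transcripts. Their median log2 fold change was -1.16 beside -0.02 over all tested transcripts. Over all 6 libraries edgeR called 3 lower and 0 higher, with a median of -0.91 beside -0.04, against a background of 15.2% called lower and 13.3% higher. No transcript of the list was higher there at an unadjusted p under 0.05 either. DESeq2 called 6 lower and 0 higher, against 16.6% lower of all the transcripts it tested. The 3 that edgeR called lower were the 3 homomeric transcripts. The list was written with earlier results of these data known, so its counts are a description.

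g6564, the remaining homomeric transcript, stood at 41.4, 38.7 and 43.3 CPM in mixotrophic libraries and at 82.6, 106 and 113 CPM in normal ones. Its conditions did not overlap, and its log2 fold change was -1.45 ± 0.11 over replicates 2 and 3 (SE, edgeR adjusted p = 2.7e-12) and -1.29 ± 0.15 over all 6 libraries (edgeR adjusted p = 0.0032). The 3 homomeric transcripts lay in separate Trinity components and shared the same best Arabidopsis match, the homomeric enzyme ACC2, with scores of 739 for g16344, 596 for g6564 and 322 for g9695. Their domain matches differed, a carboxyl transferase domain for g16344, an ATP-grasp fold for g6564 and a pre-ATP-grasp fold for g9695. Whether they are pieces of a single gene or several genes was not tested, nor in which compartment their products work. Within the summed CPM of the 3, g9695 made up 6.23%, 6.33% and 6.28% in mixotrophic libraries, against 9.59%, 9.81% and 8.62% in normal libraries.

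The carboxyltransferase and carrier subunits of the heteromeric complex were called lower by edgeR over replicates 2 and 3 and, without the replicate block, not over all 6 libraries, where DESeq2 called g5870, g8672 and g8673 (adjusted p = 0.025, 0.011 and 0.015). g5870, the alpha carboxyltransferase, stood at 250, 250 and 260 CPM in mixotrophic libraries and at 273, 549 and 530 CPM in normal ones. Its conditions did not overlap, but normal replicate 1 was close to the mixotrophic libraries. The log2 fold change of g5870 was -1.10 ± 0.06 over replicates 2 and 3 (edgeR adjusted p = 1.2e-15) and -0.83 ± 0.27 over all 6 (edgeR adjusted p = 0.067).

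Of the biotin carboxyl carrier transcripts, g8672 and g8673 were alternative forms of 1 Trinity component, so reads may be divided between them. Over replicates 2 and 3 their log2 fold changes were -1.31 ± 0.08 and -1.21 ± 0.08. Over all 6 libraries they were -1.03 ± 0.30 and -0.99 ± 0.30, with edgeR adjusted p of 0.0504 and 0.0562, neither of them called. With the replicate block g8673 alone passed (edgeR adjusted p = 0.044). g7112, a further carrier protein, stood at 78.8, 114 and 99.2 CPM in mixotrophic and at 58.9, 221 and 221 CPM in normal libraries. As for g9538, normal replicate 1 was the lowest of all 6, and the log2 fold change of -1.07 ± 0.08 over replicates 2 and 3 (edgeR adjusted p = 4.3e-12) became -0.78 ± 0.50 over all 6 (edgeR adjusted p = 0.30).

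Of the 5 tested transcripts annotated as biotin carboxylase, edgeR called only g9538 lower over replicates 2 and 3, against 29% of all transcripts. At an unadjusted p under 0.05, 2 of the 5 were lower there. g9539, from the same read cluster of the assembly as g9538 but another component, stood at 816, 794 and 826 CPM in mixotrophic and at 554, 784 and 771 CPM in normal libraries. Every mixotrophic library was above every normal one, as in 24.4% of all tested transcripts, but the difference was small and not called (log2 fold change 0.04 ± 0.05 over replicates 2 and 3, edgeR adjusted p = 0.56, and 0.21 ± 0.15 over all 6, edgeR adjusted p = 0.35). Its best match, with a score of 1708, was an undescribed conserved domain, and its match to the Arabidopsis biotin carboxylase scored 378, against 648 for g9538. Its Chlamydomonas match, with a score of 931, was another than that of g9538. Its InterPro domain match, with a score of 302, also differed from that of g9538, an ATP-grasp fold. Whether g9539 is a biotin carboxylase of the heteromeric complex was not tested.

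g6770 and g6773 had as their best described matches the biotinylated subunit of methylcrotonyl-CoA carboxylase, an enzyme of leucine breakdown. Neither was called, with log2 fold changes of -0.52 ± 0.25 and 0.01 ± 0.20 over replicates 2 and 3 (edgeR adjusted p = 0.079 and 0.98). g6771 had 2, 1 and 2 counts in mixotrophic libraries and 0, 1 and 0 in normal libraries, too few for the test. g6778 had 40, 19 and 15 counts in mixotrophic libraries, against 91, 2 and 0 counts in normal libraries. It was the transcript called higher over replicates 2 and 3 (3.45 ± 0.76, edgeR adjusted p = 0.00029). Over all 6 libraries its log2 fold change was -0.59 ± 1.45 (edgeR adjusted p = 0.83), since normal replicate 1 was the highest library, so its direction depends on that library.

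**Figure D3:**
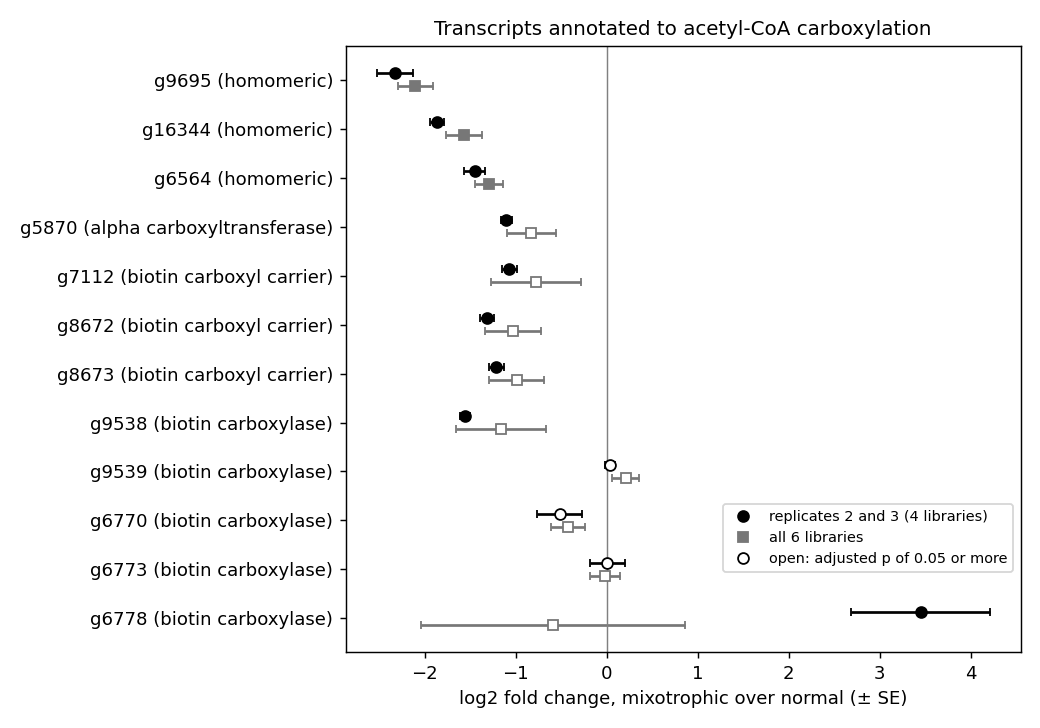
Log2 fold change of mixotrophic over normal with its SE for the 12 tested acetyl-CoA carboxylase transcripts, over replicates 2 and 3 (black circles) and over all 6 libraries (grey squares); open symbols did not pass an adjusted p of 0.05. The 3 homomeric transcripts at the top stay filled in both. The 5 heteromeric ones called lower over replicates 2 and 3 lose the edgeR call over all 6 libraries, and g6778 changes side.

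The balance between the forms followed the same split between libraries. Of the counts of the 3 homomeric transcripts and of g9538, g5870, g7112, g8672 and g8673, the homomeric share was 14.02% (exact 95% binomial interval 13.1 to 14.97), 11.2% (10.4 to 12.2) and 11.2% (10.3 to 12.1) in mixotrophic replicates 1 to 3. It was 25.9% (24.7 to 27.2), 14.4% (13.7 to 15.2) and 14.6% (13.9 to 15.3) in normal replicates 1 to 3. Every mixotrophic library was below every normal one, but mixotrophic replicate 1 lay within the intervals of normal replicates 2 and 3, and only normal replicate 1 was far off. The intervals cover counting error only. The shares are not corrected for transcript length, so they compare libraries and not the forms.

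In summed CPM, the homomeric transcripts had 163, 136 and 139 in mixotrophic libraries, against 334, 472 and 465 in normal libraries. The 5 heteromeric ones had 999, 1075 and 1103 in mixotrophic libraries, against 956, 2799 and 2716 in normal libraries. In normal replicate 1 the homomeric sum lay nearer to the other normal libraries and the heteromeric sum nearer to the mixotrophic ones.

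The later steps of plastid fatty acid synthesis had more transcripts called higher than lower. Of 25 transcripts annotated to these steps, 16 were tested. Over replicates 2 and 3, 9 were called higher and 3 lower with a median log2 fold change of 0.48, against 28.6% higher and 29% lower among all transcripts. With all 6 libraries, 6 were higher and 1 lower with a median of 0.85, against 13.3% and 15.2%. DESeq2 over replicates 2 and 3 called 9 higher and 1 lower, against 2488 higher and 2568 lower of the 12389 transcripts. g15111, annotated as the 3-oxoacyl-ACP reductase that carries out the first reduction of the growing chain, stood at 219, 244 and 241 CPM in mixotrophic libraries and at 29.0, 6.68 and 7.88 CPM in normal ones. It rose by 5.01 ± 0.13 on the log2 scale over replicates 2 and 3 (edgeR adjusted p = 7.0e-23) and by 3.98 ± 0.59 over all 6 (edgeR adjusted p = 0.0063). Its best described match was a broader family of NAD-binding proteins, so the assignment to this step is uncertain.

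g9908, annotated as the ACP desaturase that makes the first double bond, was the other named transcript that rose. It stood at 121, 111 and 117 CPM in mixotrophic libraries and at 2.76, 10.9 and 9.53 CPM in normal ones, a log2 fold change of 3.47 ± 0.15 over replicates 2 and 3 and 3.95 ± 0.46 over all 6 (edgeR adjusted p = 0.0031). It is 1 of 6 alternative forms of a component, among which reads may be divided, and the forms differed. g9912 also rose, with log2 fold changes of 3.72 ± 0.17 over replicates 2 and 3 and 4.21 ± 0.39 over all 6. g9914 was called lower over replicates 2 and 3 only (-0.32 ± 0.11, edgeR adjusted p = 0.012), g9907 and g9916 were not called (-0.14 ± 0.08 and -0.12 ± 0.16 over replicates 2 and 3), and g9910 had too few counts for the test. g6994, the FatA-like thioesterase that releases finished fatty acids from the carrier, was lower in every mixotrophic library, at 159, 180 and 172 CPM, than in normal libraries, at 285, 280 and 261 CPM. It was called lower over replicates 2 and 3 (-0.64 ± 0.07, edgeR adjusted p = 8.4e-09) and over all 6 libraries (-0.69 ± 0.10, edgeR adjusted p = 0.0056). g14611, a ketoacyl-ACP synthase II, was called lower by edgeR over replicates 2 and 3 only (-0.33 ± 0.11) and was at 0.02 ± 0.33 over all 6. DESeq2 over replicates 2 and 3 called neither g14611 nor g9914 (adjusted p = 0.16 and 0.15).

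Another 8 of the 25 had 0 counts in every library, among them the only transcripts annotated as enoyl-ACP reductase (2) and as hydroxyacyl-ACP dehydratase (1). In all, 4327 of the 18310 transcripts are listed at 0 throughout. Whether reads of these transcripts were left uncounted was not tested, and no upper limit is given for them.

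**Figure D4:**
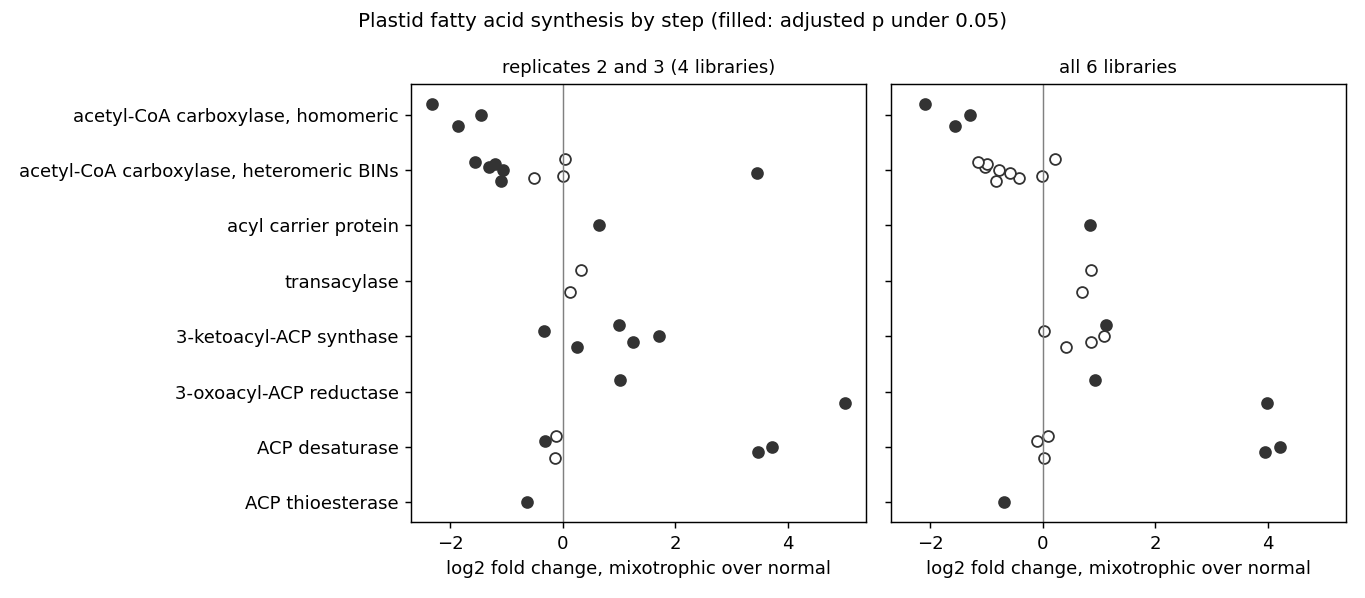
Log2 fold changes, mixotrophic over normal, of each tested transcript of both acetyl-CoA carboxylase forms and of the later plastid steps of fatty acid synthesis. Left, replicates 2 and 3. Right, all 6 libraries. Filled points have an adjusted p under 0.05. Homomeric carboxylase points lie left of 0 in both panels. Over all 6 libraries 0 of the 9 heteromeric points are filled, against 15.2% called lower and 13.3% higher of all transcripts. DESeq2, not drawn here, called 3 of the 9 lower over all 6. In the right panel 6 of the 16 transcripts of later steps are filled on the right of 0, against 13.3% called higher of all transcripts.

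Transcripts of enzymes that supply acetyl-CoA were called lower and higher over replicates 2 and 3 at shares near those of all transcripts, with 10 higher and 9 lower of 28 tested against 28.6% and 29%. In the 6-library fit 8 were higher and 0 lower in edgeR, against 13.3% and 15.2%, where 2 were lower at an unadjusted p under 0.05 and DESeq2 called 1 lower. g11546, matched to the plastidic acetyl-CoA synthetase that makes acetyl-CoA from acetate, stood at 748, 754 and 765 CPM in mixotrophic libraries and at 60.5, 91.0 and 74.6 CPM in normal ones. It rose by 3.19 ± 0.08 on the log2 scale over replicates 2 and 3 and by 3.33 ± 0.17 over all 6 (edgeR adjusted p = 0.00048). g11549, a form of the same component, rose by 3.16 ± 0.09 and 3.19 ± 0.10. For these transcripts normal replicate 1 lay with the other normal libraries.

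ATP citrate lyase, which makes cytosolic acetyl-CoA in land plants and animals, split by library as g9538 did. All 4 of its transcripts were called lower over replicates 2 and 3, against 29% of all transcripts. Over all 6 libraries edgeR called 0 of the 4, against 15.2% of all transcripts called lower. There 0 passed an unadjusted p under 0.05 and 0 were called by DESeq2. g9155 stood at 267, 285 and 269 CPM in mixotrophic libraries and at 164, 643 and 605 CPM in normal libraries. Its log2 fold change was -1.19 ± 0.06 over replicates 2 and 3 and -0.78 ± 0.49 over all 6 (edgeR adjusted p = 0.29). g15291, a subunit B form, was at -0.83 ± 0.05 and -0.43 ± 0.41. In both, normal replicate 1 was the lowest of the 6 libraries. Transcripts of the pyruvate dehydrogenase complex, which makes acetyl-CoA from pyruvate, had a median log2 fold change of 0.04 over 14 tested over replicates 2 and 3. There 4 were higher and 3 lower, near the 28.6% and 29% of all transcripts. With all 6 libraries 2 were higher and 0 lower in edgeR, against 13.3% and 15.2% of all transcripts. At an unadjusted p under 0.05, 0 were lower, and DESeq2 called 0 lower. With the replicate block 0 were called in either direction, against 1228 higher and 1288 lower of all 12318 tested transcripts. At an unadjusted p under 0.05, 2 were higher and 0 lower in that fit.

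Activation of fatty acids and their elongation, which draws on malonyl-CoA outside the plastid, gave 10 higher and 16 lower of 38 tested transcripts over replicates 2 and 3, against 28.6% and 29% of all transcripts, and 5 higher and 5 lower over all 6, near the 13.3% and 15.2% of all transcripts. These counts include g11546 and g11549, matched to the plastidic acetyl-CoA synthetase and also counted above with the enzymes that supply acetyl-CoA. The other acyl-CoA ligases named here were g1955 and g1954, matched to long-chain acyl-CoA synthetases. Both were called lower over replicates 2 and 3, with log2 fold changes of -0.72 (SE 0.06 for g1955 and 0.07 for g1954), and not over all 6 (-0.39 ± 0.36 and -0.37 ± 0.36).

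Biotin is the cofactor of both carboxylase forms. Of 7 tested transcripts of its synthesis, 3 were higher and 4 lower over replicates 2 and 3, against 28.6% and 29% of all transcripts. edgeR called 2 lower and 0 higher over all 6 libraries, against 15.2% and 13.3%, with 1 higher at an unadjusted p under 0.05, and DESeq2 called 3 lower and 0 higher. g1024 and g1023, matched to the diaminopelargonic acid aminotransferase BIO1, were lower over replicates 2 and 3 (log2 fold change -1.74 ± 0.11 and -1.31 ± 0.10). Over all 6 they were at -1.21 ± 0.46 and -0.80 ± 0.44 and not called by edgeR (adjusted p = 0.099 and 0.23), whereas DESeq2 called g1024 (adjusted p = 0.040) and not g1023 (0.20). g4386 and g4388, methyltransferase-like forms of 1 component, were higher over replicates 2 and 3 (log2 fold change 1.85 ± 0.17 and 1.81 ± 0.18) and at 1.04 ± 0.48 and 1.02 ± 0.51 over all 6, not called by edgeR (adjusted p = 0.16 and 0.19) or by DESeq2 (adjusted p = 0.10 and 0.14).

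Other biotin-dependent carboxylases gave 3 higher and 1 lower of 7 tested over replicates 2 and 3, against 28.6% and 29% of all transcripts. edgeR called 0 higher and 1 lower over all 6 libraries, against 13.3% and 15.2%, with 1 higher at an unadjusted p under 0.05, and DESeq2 also called 0 higher and 1 lower. g7379, the biotinylated subunit of methylcrotonyl-CoA carboxylase, stood at 96.5, 102 and 97.8 CPM in mixotrophic libraries and at 187, 397 and 385 CPM in normal libraries. It fell in both fits, with a log2 fold change of -1.99 ± 0.07 over replicates 2 and 3 and -1.71 ± 0.30 over all 6 (edgeR adjusted p = 0.010). g6777 and g6775, with an allophanate hydrolase domain, were higher by 3.24 ± 0.24 and 2.99 ± 0.24 over replicates 2 and 3. Normal replicate 1 reversed this: g6777 stood at 54.2, 39.9 and 45.5 CPM in mixotrophic libraries, against 175, 5.43 and 3.61 CPM in normal libraries. Over all 6 it was at -0.41 ± 1.32. g6778 of the carboxylase list, which had the same pattern, shared its best Chlamydomonas match with them.

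The transcripts whose levels over the 6 libraries were most like each carboxylase transcript were found by the root mean square difference of log2 CPM after centring, among 4746 annotated transcripts of other components. For g9695 they were g16003 and g16002, forms of an aldehyde dehydrogenase (0.094 and 0.10), and g11799, a sucrose synthase (0.11). For g16344 they were g12295, a metal-transporting ATPase-like transcript (0.061), g17482, similar to DNA polymerase delta (0.071), and g13031, an ABC transporter (0.089). For g9538 they were g10897, a CobW-like transcript (0.057), g6884, a chloride channel (0.11), and g17769, a cytochrome c biogenesis protein (0.12). Over the 6 libraries Pearson's r with the carboxylase transcript was between 0.99 and 1.00 for all 9, a description of points that share libraries and that were picked for likeness. The profiles like g9695 and g16344 kept normal replicate 1 with the other normal libraries, and those like g9538 placed it below the mixotrophic ones.

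**Figure D5:**
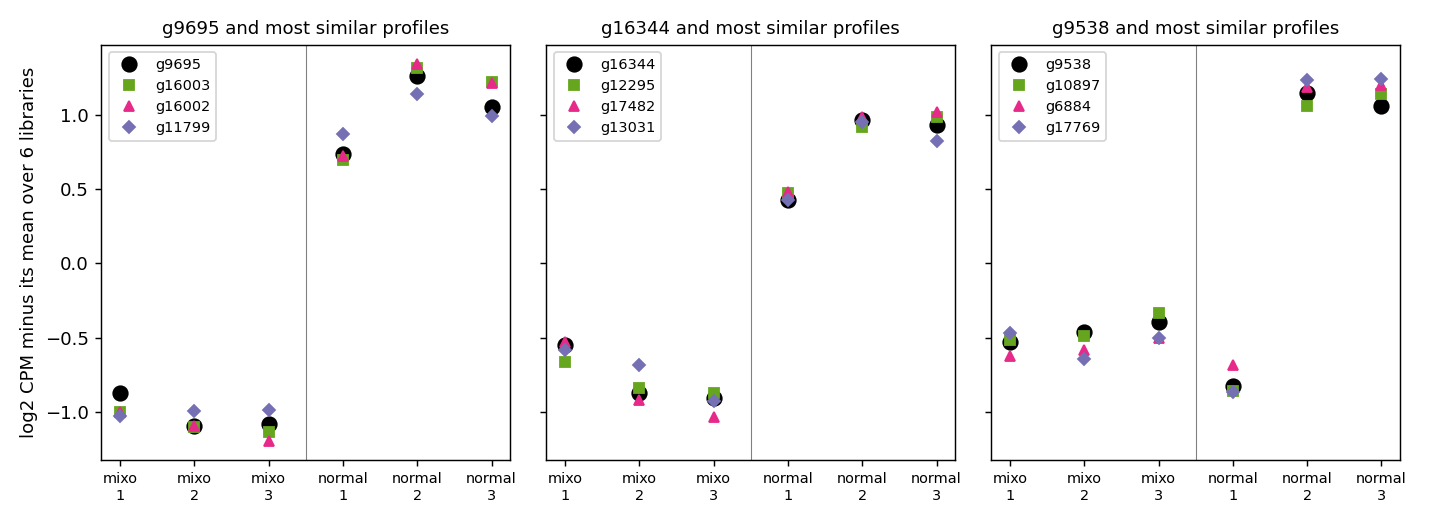
Log2 CPM minus its mean over the 6 libraries for g9695, g16344 and g9538 (black) and the 3 transcripts most like each (colours), mixotrophic libraries left of the line and normal libraries right. Normal replicate 1 sits with the other normal libraries in the g9695 and g16344 panels and below the mixotrophic libraries for all 4 transcripts of the g9538 panel.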

How the data were processed

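RNA of 3 mixotrophic and 3 normal cultures was sequenced. Per the study's methods, the authors assembled the reads with Trinity, predicted coding transcripts with AUGUSTUS, aligned the reads with Subread and took counts from featureCounts with its default settings; the submitters' processing notes name BWA and DESeq2, without version. The deposited table holds whole-number read counts per transcript, unscaled, with 4327 transcripts at 0 throughout. The deposited tables of the authors' own tests and the assembly map were not used. No sequences were used.

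edgeR 4.0.16 (R 4.3.3) was run with filterByExpr (minimum count 10), TMM, glmQLFit and two-sided glmQLFTest, with Benjamini-Hochberg adjustment and a threshold of 0.05; DESeq2 1.42.0 served as an alternative. The SE was taken from the log2 fold change and the F statistic. CPM come from the fit to all 6 libraries, and log2 CPM use a prior count of 2. The script was tested on simulated data. Lists followed MapMan BINs and keywords; 711 descriptions were removed in the copy used, so keyword lists may miss members. The 8 transcripts of the homomeric share are those the study lists as found for this enzyme in its assembly. The members and lists were chosen with earlier results of these data known. Named are the 3 members, the rest of their list, for every other list the 2 higher and 2 lower transcripts with the smallest adjusted p, and for every member the 3 most similar profiles with a mean log2 CPM of at least 3; the other forms of the g9908 component were named after their values were seen.

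Deviations from the condition means correlated at 0.70, 0.63 and 0.54 between libraries of the same number (1, 2 and 3). These values cannot show pairing, since replicate 1 stood apart in both conditions and deviations from a shared mean are tied to each other. The labels give the number only, so the main comparison was unpaired and the replicate block was an alternative. Depth, 2535461 to 4444858 counts, limits low transcripts. Alternatives were other scalings, filters, DESeq2, all 6 libraries, the replicate block, sums per component and leaving out libraries.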

Additional observations from a re-analysis of the deposited data

How the results depend on the processing

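The 2 homomeric members stayed called in the same direction in all 16 alternatives, with log2 fold changes of -2.43 to -2.09 for g9695 and -1.90 to -1.56 for g16344. g9538 was called in 12 of 16. It was at -1.16 over all 6 libraries, -0.94 with the replicate block over all 6, -1.18 in DESeq2 over all 6, and between -1.60 and -1.15 when a library was left out. No other call of these 3 transcripts changed with the block, which over replicates 2 and 3 gave log2 fold changes of -2.34 for g9695, -1.87 for g16344 and -1.56 for g9538.

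Of all transcripts, 3549 were higher and 3593 lower. These became 1633 and 1874 over all 6 libraries, 1228 and 1288 with the replicate block over all 6, and 1815 and 2090 in DESeq2 over all 6. Leaving out 1 library gave 666 to 3476 higher and 730 to 3534 lower. The lowest counts came without mixotrophic replicate 1 from all 6, which keeps normal replicate 1.

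Of the carboxylase list, 1 was higher and 8 lower, against 28.6% and 29% of all transcripts. Higher calls were 0 with 10 counts required in every library, 0 in each fit over all 6, 2 with counts summed per component (g6778, and g6773 summed with g6772, which is outside the list), and 0 to 1 with a library left out. Lower calls were 3 over all 6 and 6 in DESeq2 over all 6, against 15.2% and 16.6% of all transcripts called lower. With the replicate block over all 6 they were 4, against 1288 of all 12318 tested transcripts. They were 7 with counts summed per component, against 2930 lower of all components. Without mixotrophic replicate 1 from all 6 they were 3, against 730 lower of all transcripts. Without normal replicate 1 from all 6 they were 8, against 3527 lower of all transcripts. The differences between members kept their sign throughout: -1.32 to -0.71 for g9695 minus g9538, -0.83 to -0.30 for g16344 minus g9538, and -0.57 to -0.40 for g9695 minus g16344 when 1 replicate number was left out. The value nearest 0 came without replicate 1 in each case.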
